A study of Homo sapiens with 10 samples.

Results

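MDA-MB-435 is an established human melanoma cell line, and here its cells had been given hepatocyte growth factor (HGF) for 6 h. RNA from these cells was compared with RNA from untreated cells of the same line. Of the 10 Affymetrix hgu133a arrays of the series, 4 belong to this comparison, 2 of cells after 6 h of HGF and 2 of untreated cells, and the arrays were taken by their labels alone. The other 6 arrays hold cells after 1 h of HGF, cells after 24 h of HGF and cells transduced with integrin Beta4, with 2 arrays each. They entered the comparison through the estimate of the spread between replicates. The labels call the 2 arrays of a condition biological duplicates and give the same growth conditions for all. No dose of HGF is given, and each condition is the same single line.

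HGF is a secreted factor made mostly by mesenchymal cells, and MET is its receptor tyrosine kinase. Binding of HGF switches on the RAS and ERK cascade, PI3K with mTOR, and other routes that drive growth, survival and migration of epithelial and melanocytic cells. Early target genes of such a signal code for transcription factors that act on a later set of genes, and a sample taken after several hours can hold both sets.

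Values are on the log2 scale of the robust multi-array average (RMA), where a difference of 1 is a doubling. A probe set is one group of oligonucleotides on the array that is read as 1 value, and some carry more than 1 gene symbol. A probe set was tested when its second-highest value over the 10 arrays reached 7.3, which 10176 of 22215 did. A probe set was called higher or lower where limma's adjusted p was under 0.05. Each gene is represented by its tested probe set of highest mean level, which gave 6390 genes. RMA values flatten at the low end, so fold changes are inexact where a group mean lies under 7.3. With 2 arrays against 2, an exact permutation test of 1 gene could not give a p below 0.333, and the calls below therefore rest on limma's spread estimate over all arrays.

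The arrays had medians between 6.81 and 6.88. All 9 melanocyte lineage markers on the array were tested, with a median level of 11.2 in untreated cells and 10.9 at 6 h. In a short panel for other cell types, 1 of 8 epithelial, 3 of 7 fibroblast and 0 of 4 leukocyte genes reached the level for testing. The highest untreated level of these 4 leukocyte genes was 6.75. In longer marker lists, 5 of 21 epithelial, 4 of 15 fibroblast and 1 of 14 leukocyte genes on the array were tested. That leukocyte gene was LCP1, with an untreated level of 11.2. In RNA from a whole culture, fewer cells of a kind and less RNA per cell cannot be told apart.

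At 6 h, 395 probe sets were called higher and 237 lower, which is 3.88% and 2.33% of those tested. In terms of genes, 239 rose and 174 fell, 3.74% and 2.72% of 6390. The median increase among the probe sets called higher was 0.70 on the log2 scale, a 1.62-fold change, and the median decrease was of similar size at 1.60-fold. Only 48 increases and 31 decreases passed 2-fold. The shift of all tested genes was small, with a median of 0.01.

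The 2 HGF arrays gave much the same picture. Against the untreated mean, the probe sets called higher had a median difference of 0.68 on replicate 1 and 0.73 on replicate 2. Those called lower had medians of -0.64 and -0.69. In all 632 called probe sets the HGF pair and the untreated pair did not overlap. That separation alone was common, since 32.5% of all tested probe sets lay wholly higher and 27.8% wholly lower. Of the probe sets tested, 178 reached the level for testing through the 6 h arrays, and 31 of these were called higher, so their calls were favoured by the rule.

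**Figure D1:**
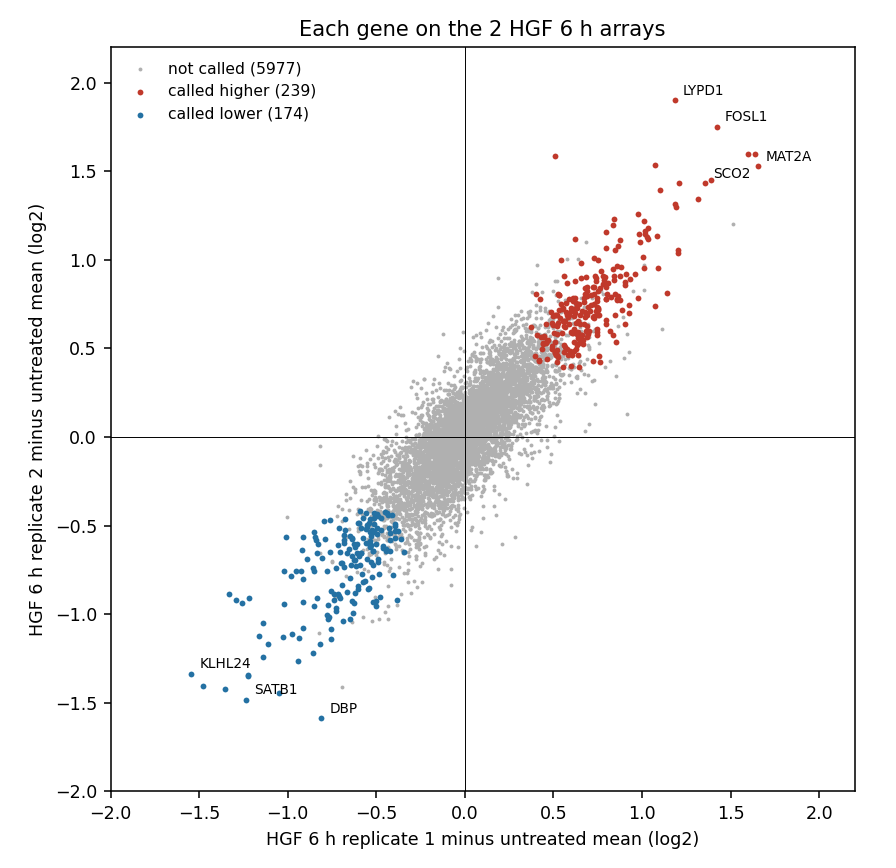
Log2 difference of each of the 6390 genes from the untreated mean on HGF 6 h replicate 1 (x axis) and replicate 2 (y axis). Red points are the 239 genes called higher, blue points the 174 called lower and grey points the others, and every called gene lies in the lower left or the upper right quadrant.

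The largest increases were held by genes of quite different roles. RBM12, a nuclear RNA-binding protein, stood at 7.92 and 7.71 in the untreated arrays and at 9.46 and 9.42 after HGF, a difference of 1.62 ± 0.30 (SE). MAT2A, the enzyme that makes S-adenosylmethionine from methionine, went from 9.18 and 8.77 to 10.62 and 10.50, a 3.01-fold rise that both of its tested probe sets showed. FOSL1, an AP-1 subunit that ERK signalling is known to induce, had 8.39 and 8.24 before and 9.74 and 10.07 after. In each of these 3 genes the arrays of the groups were more than 1 log2 unit apart. The array values of LYPD1, a small protein anchored at the cell surface, were 7.28 and 7.61 without HGF and 8.63 and 9.35 with it. Here the 2 HGF arrays differed more from each other than the untreated arrays did, but both lay above them.

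SPHK1 and SCO2 had the smallest errors of the 12 largest increases. SPHK1, the kinase that makes sphingosine 1-phosphate, read 8.50 and 8.25 in untreated cells against 9.69 and 9.72 at 6 h (difference 1.33 ± 0.13, limma adjusted p = 0.00227). SCO2, a copper chaperone for cytochrome c oxidase, read 8.16 and 7.97 against 9.42 and 9.50 (1.39 ± 0.16, limma adjusted p = 0.00255). These were also the only genes among the 239 that stayed called when any 1 of the 4 compared arrays was left out. FRMD4A, a scaffold protein of cell junctions and polarity, rose 2.50-fold. RBM14 and SFPQ, RNA-binding proteins of nuclear paraspeckles, both rose 2.38-fold. SFPQ had the widest untreated pair of the 12, at 9.07 and 8.57. Of its 3 tested probe sets 2 were called, and under other processing its difference was as low as 0.90.

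3 of the 12 largest increases began below the level for testing. SERPINB8, an intracellular inhibitor of serine proteases, had 7.12 and 6.77 in untreated cells and 8.54 on both HGF arrays. CXCL8, the neutrophil chemokine interleukin 8, had 6.38 and 5.90 and then 7.53 and 7.59. CEMIP, a protein needed for breakdown of hyaluronan, had 6.96 and 7.19 and then 8.15 and 8.62. All 3 were tested through their 6 h arrays, and the fold changes of 3.03, 2.68 and 2.47 are inexact for this reason. The limma adjusted p of the 12 genes ran from 0.00227 to 0.0380.

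Promoter sequence of genes in this set was read from RefSeq (GRCh38.p14) over 250 bases before and 50 after the start site. The letters TGANTCA, the core that AP-1 dimers bind, were searched on both strands in 1 window per gene. They were in 6.90% of 203 promoters of genes called higher, in 6.62% of 151 of genes called lower, in 4.18% of 5356 promoters of tested genes and in 7.76% of all 27305 genes with a window. Of the 12 largest increases, FOSL1, SCO2 and SFPQ had no window. Among the others, SERPINB8, LYPD1, CXCL8 and SPHK1 held the core, the first pair 2 times each. Of the 12 largest decreases, DEPTOR had no window and KLHL24 alone held the core. CXCL8 and SPHK1 are shown as increases with a single match. Capitals mark the match, and the stretches are chr4:73740405-73740465 on the plus strand and chr17:76383187-76383215 on the plus strand.
CXCL8: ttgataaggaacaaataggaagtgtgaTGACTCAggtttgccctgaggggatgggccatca
SPHK1: gagcgcgtcgcTGAGTCAccttcccggaa
The match is a description of the sequence. Binding at these windows was not measured.

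The largest decreases were also held by genes of different roles. DEPTOR, an inhibitor bound to mTOR complexes, fell from 8.76 and 9.00 in the untreated arrays to 7.53 and 7.45 after HGF (2.62-fold). KLHL24, an adaptor of a cullin ubiquitin ligase, fell from 8.37 and 8.27 to 6.78 and 6.98 on 1 of its 2 tested probe sets, while the other differed by -0.06 and the mean of the 2 by -0.75. YPEL5, a subunit of another ubiquitin ligase complex, fell from 9.78 and 9.76 to 8.72 and 8.32. The untreated pairs of KLHL24 and YPEL5 were close, and the HGF arrays lay more than 1 log2 unit below them. SATB1, an organiser of chromatin loops, had 7.75 and 7.77 before and 6.53 and 6.28 after. FOXN3, a forkhead repressor, read 8.90 and 8.97 without HGF and 7.71 and 7.58 with it. Of its 3 tested probe sets 2 were called, and the mean of the 3 gave -0.80 against -1.29 here. EPHA3, a receptor tyrosine kinase for ephrins, was at 8.95 and 9.02 and then at 7.85 and 7.75, and both of its tested probe sets were called.

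Other large decreases reached values under the level for testing. ZNF277, a zinc finger protein, fell from 7.52 and 7.38 to 5.97 and 6.05, the largest decrease at 2.72-fold. XYLT1, which adds the first sugar of glycosaminoglycan chains, fell from 7.89 and 8.23 to 6.83 and 6.71. DBP, a transcription factor driven by the circadian clock, had the least even HGF pair, with 8.00 and 8.04 in untreated cells and 7.21 and 6.43 at 6 h (limma adjusted p = 0.0483). For ZNF277, KLHL24, SATB1, XYLT1, DBP and CCDC28A the 6 h mean was under 7.3, so the sizes of their decreases are inexact. DEPTOR, EPHA3, FOXN3, KLHL24, SATB1, YPEL5 and ZNF277 stayed called whichever of the 4 arrays was left out.

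**Figure D2:**
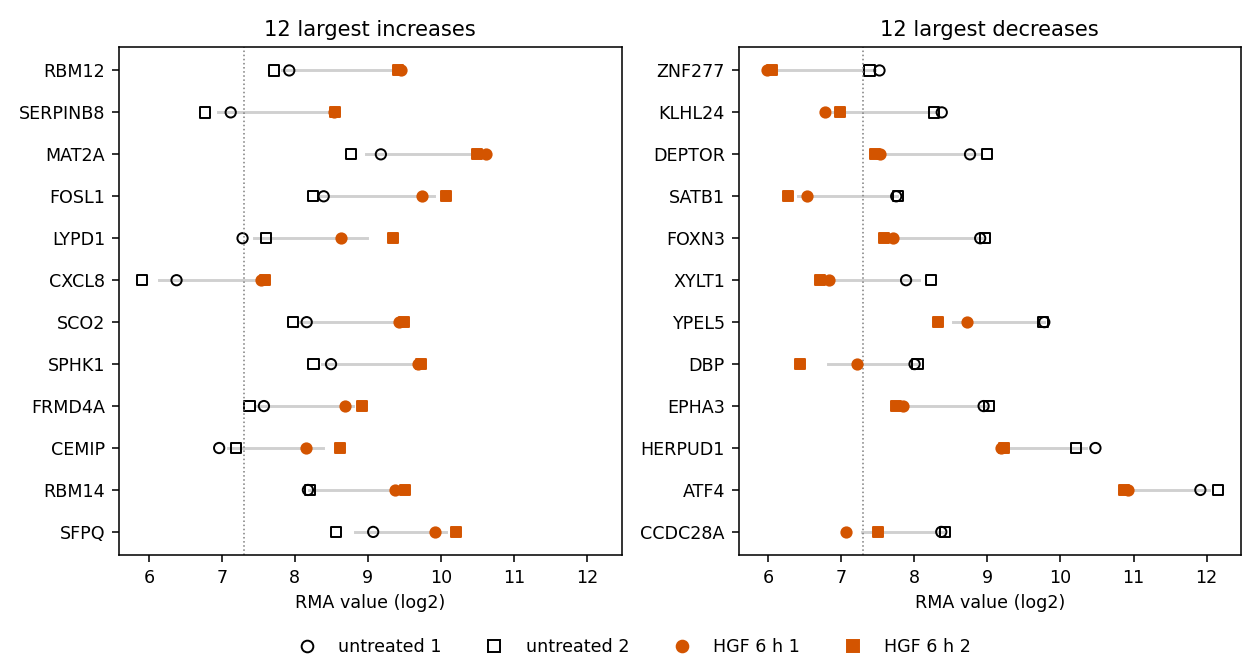
RMA values (log2, x axis) of the 12 genes with the largest increases (left) and the 12 with the largest decreases (right). Open symbols are untreated arrays, filled symbols HGF 6 h arrays, circles replicate 1 and squares replicate 2. Grey bars join the group means and the dotted line is the testing level of 7.3. The open and filled symbols do not overlap in any gene shown.

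Ribosome biogenesis factors of the nucleolus had the largest median difference of the gene lists. These proteins cut, modify and fold ribosomal RNA and load ribosomal proteins on it. Of 68 tested members, 25 (36.8%) rose and 0 fell, against 3.74% and 2.72% of all genes. The median difference was 0.50, with 0.48 on replicate 1 and 0.54 on replicate 2, against 0.01 for all genes. A positive difference was seen in 66 members, against 3336 of all 6390 genes. NOP16, a factor of the large subunit, stood at 9.93 and 9.62 in untreated cells and at 10.75 and 11.03 after HGF. NOP2, a methyltransferase of large subunit RNA, had 8.62 and 8.43 and then 9.51 and 9.63. MRTO4, an early factor of the large subunit stalk, had 9.19 and 9.20 and then 10.03 and 10.39. TSR1, a factor of the small subunit, rose 1.88-fold and so did UTP14A of the processome for that subunit. The abundant nucleolar proteins NPM1 and FBL, chosen after their values were seen, had differences of 0.15 and 0.20 (limma adjusted p = 0.454 and 0.462). The 25 calls dropped to between 0 and 3 when 1 of the 4 compared arrays was left out.

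The palindrome CACGTG, an E-box that MYC with MAX and other factors can bind, was searched in the same promoter windows. It was in 11 of 21 windows (52.4%) of biogenesis factors called higher and in 17 of 41 (41.5%) of those not called. For comparison, it was in 17.7% of promoters of all genes called higher, in 14.6% of genes called lower, in 11.4% of tested genes and in 7.43% of all genes with a window. Biogenesis factors thus held it often whether called or not. Of the 11 called members with an E-box, 5 were chosen after their values were seen. PES1 and NOL6, with the E-box at position 14 after the start site, were among those not chosen. The stretches below are the matches of NOP2, RRP9, MRTO4, NAT10 and POLR1G, with the E-box in capitals. They lie at chr12:6568242-6568268 on the minus strand, chr3:51941892-51941921 on the minus strand, chr1:19251807-19251836 on the plus strand, chr11:34105587-34105628 on the plus strand and chr19:45406605-45406643 on the plus strand.
NOP2: aggtccggattgCACGTGgagggccgc
RRP9: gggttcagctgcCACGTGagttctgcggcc
MRTO4: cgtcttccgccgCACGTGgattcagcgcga
NAT10: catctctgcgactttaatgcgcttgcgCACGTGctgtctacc
POLR1G: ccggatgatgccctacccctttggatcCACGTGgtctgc
The first base of the E-box was at position 36 after the start site in NOP2 and 15 after it in MRTO4. It was 5, 15 and 12 bases before the start in RRP9, NAT10 and POLR1G. No factor binding was measured here.

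Other groups of the protein synthesis machinery held fewer calls. The shares of all genes, 3.74% higher and 2.72% lower, are the comparison for each list count of calls here and below. For counts of positive differences, the comparison is 3336 of 6390 genes. RNA polymerase I and III genes had 3 of 20 members higher and 0 lower, with a median of 0.21. UBTF, which opens ribosomal DNA for polymerase I, rose from 7.91 and 7.89 to 8.52 and 9.01. Translation initiation and elongation factors had 5 of 39 higher and 0 lower. EIF4E, which binds the mRNA cap, read 9.20 and 9.17 without HGF and 9.84 and 9.83 with it, while its scaffold EIF4G1 went from 10.59 and 10.65 to 11.35 and 11.37. EIF3J, a loosely held subunit of initiation factor 3, rose 2.18-fold. The 51 tested cytosolic ribosomal proteins had 0 calls in either direction, a median of -0.05 and a range from -0.23 to 0.13. Their median untreated level of 13.2 lay near the top of the scale.

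The integrated stress response showed the opposite direction. In this pathway, kinases that sense stress slow translation, and the transcription factor ATF4 then switches on genes for amino acid supply. Of 25 tested members, 6 (24.0%) fell and 0 rose by representative probe set, with a median of -0.42. ATF4 itself had 11.92 and 12.16 in the untreated arrays and 10.93 and 10.87 after HGF. HERPUD1, a protein of endoplasmic reticulum degradation, was at 10.48 and 10.21 and then at 9.19 and 9.22. CHAC1, which degrades glutathione, was at 8.24 on both untreated arrays and fell 2.15-fold. NUPR1, a small stress-induced nuclear protein, fell 1.99-fold and VLDLR, a lipoprotein receptor, 1.74-fold. DDIT3, the proapoptotic factor CHOP and the sixth call, had a difference of -0.60. TRIB3, a pseudokinase that ATF4 induces, differed by -0.97 but lay just above limma's threshold for the adjusted p. EIF2S1, the target of the stress kinases, had a positive difference of 0.45 that was not called. ATF5, also a member, went the other way on 1 of its 2 tested probe sets. That probe set was called higher by 1.17 (limma adjusted p = 0.00255), while the representative differed by 0.18. Leaving out 1 of the 4 arrays reduced the 6 calls to between 0 and 2.

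The composite site that ATF4 binds with a C/EBP partner was searched as TGATGNAAN on both strands. It was in 2 of 5 windows of the stress genes called lower and in 4 of 16 of those not called. It was in 1.57% of windows of tested genes, in 4.64% of all genes called lower, in 1.48% of those called higher and in 3.67% of all genes with a window. The 2 stretches are printed because they belong to CHAC1 and HERPUD1, both among the largest decreases of this group. They are chr15:40953234-40953296 and chr16:56931938-56932000, each on the plus strand, with the site in capitals as its reverse complement.
CHAC1: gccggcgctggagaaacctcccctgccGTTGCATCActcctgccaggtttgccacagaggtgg
HERPUD1: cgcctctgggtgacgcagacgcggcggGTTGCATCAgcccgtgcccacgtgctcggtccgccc
The capital letters of both stretches are the same. The HERPUD1 stretch also holds the E-box letters.

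**Figure D3:**
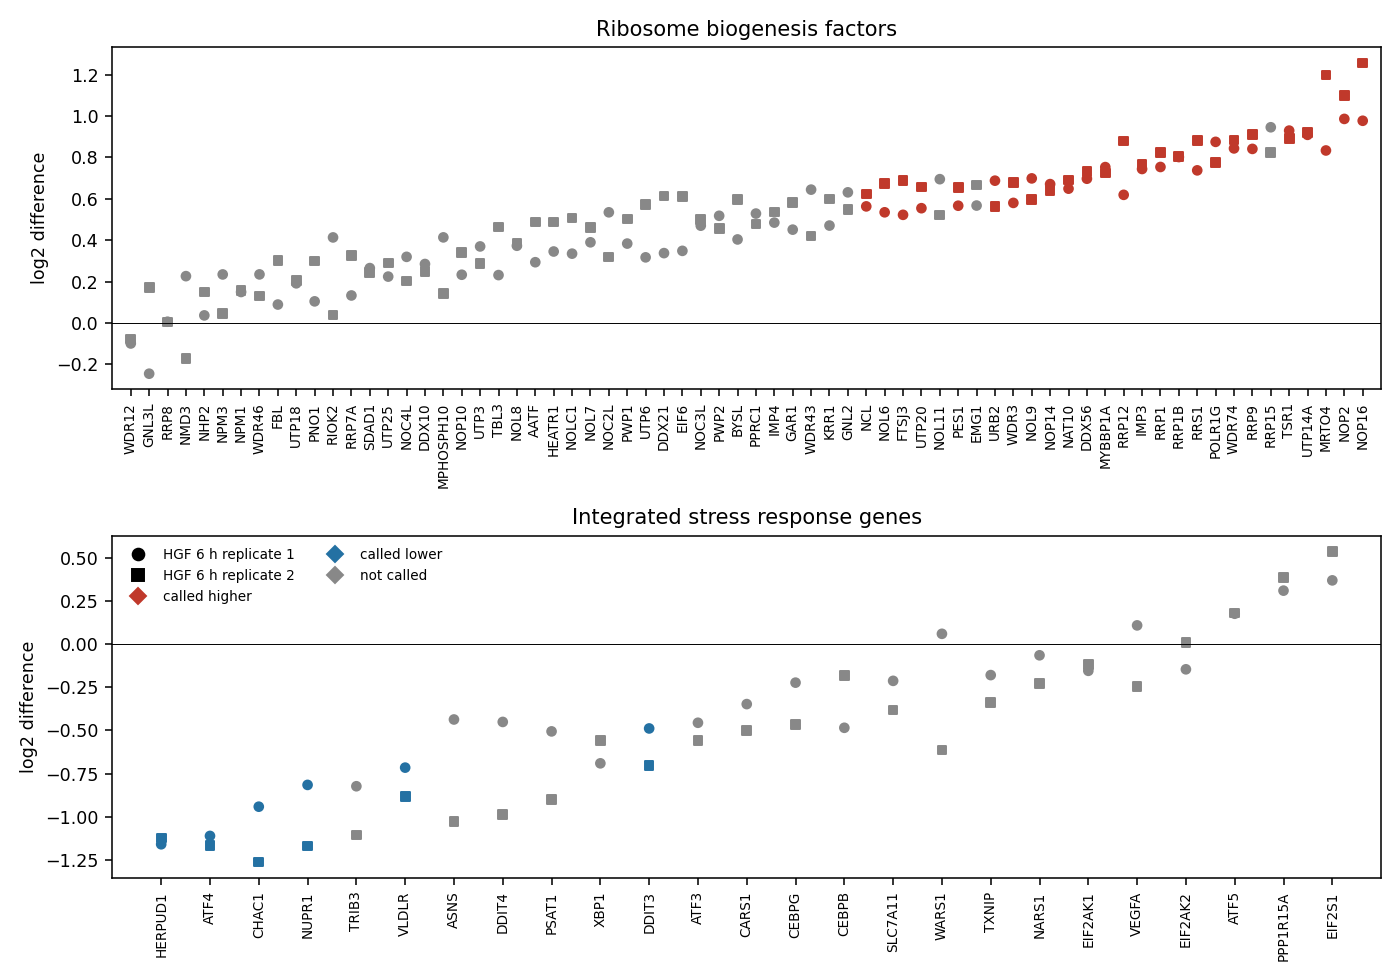
Log2 difference from the untreated mean (y axis) of the 68 tested ribosome biogenesis factors (top) and the 25 tested integrated stress response genes (bottom), in order of the mean difference. Circles are HGF 6 h replicate 1 and squares replicate 2, with genes called higher in red, called lower in blue and not called in grey. The biogenesis factors lie almost wholly above 0 and most of the stress genes below it.

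Amino acid supply did not move as 1 group. In serine, one-carbon and amino acid synthesis 2 of 14 genes fell and 0 rose (median -0.24). MTHFD2, a mitochondrial folate enzyme, fell from 10.71 and 10.78 to 10.20 and 9.89, and GLUL, the glutamine synthetase, fell 1.60-fold. Among 23 aminoacyl-tRNA synthetases, AARS1 for alanine fell from 10.27 and 10.76 to 9.60 and 9.71, while HARS1 for histidine rose from 8.99 and 9.16 to 9.59 and 9.76. These were the only calls of that list. The transporters SLC36A1 and SLC7A6 rose 1.60-fold and 1.44-fold, as 2 of 13 tested amino acid transporters. Endoplasmic reticulum chaperones had 0 of 24 called in limma's test, with a median of 0.02. The largest difference there was -0.55 for DNAJB9, a cochaperone of BiP (limma adjusted p = 0.217).

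MET itself was read at 9.38 and 8.86 in untreated cells and at 8.94 and 8.72 after HGF. The groups overlapped and the difference of -0.29 was not called (limma adjusted p = 0.443). None of the 5 probe sets for HGF reached the level for testing, and their values lay between 2.75 and 6.67. Of 19 tested genes for the receptor and its adaptors, HRAS, a RAS GTPase, was the only call, rising from 7.68 and 7.76 to 8.29 and 8.59.

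Transcription factors of the early response were split at 6 h. AP-1 subunits and small MAF proteins had 2 of 11 higher and 2 lower. JUNB had 8.53 and 8.29 before and 8.99 and 9.10 after, beside the larger rise of FOSL1 above. JUND, an AP-1 subunit often linked to slow growth, was lower at 10.87 and 10.96 against 11.45 and 11.58, on 1 of its 3 tested probe sets. MAFF, a small MAF protein, fell 1.76-fold, with both of its probe sets called. In the list of other immediate-early genes 1 of 19 was called, IER2, which rose 1.52-fold. EGR1 and MYC, chosen after their values were seen, had uncalled differences of 0.52 and -0.39.

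Genes that ERK activity induces and that feed back on it had 1 of 18 called each way. DUSP5, a nuclear phosphatase for ERK, went from 6.98 and 6.93 to 7.96 and 8.17. ETV5, an ETS factor, fell from 10.72 and 10.67 to 10.16 and 10.09, and its 3 probe sets were all called. The median of the list was 0.24. NFKBIA, the inhibitor that holds NF-kB in the cytoplasm, rose from 9.32 and 8.98 to 9.83 and 9.96 as the only call among 11 genes. LIF, a cytokine of the interleukin 6 family, rose 1.40-fold and was, with CXCL8, 1 of 2 calls among 11 tested secreted factors. PLAUR, the urokinase receptor that gathers proteolysis at the cell edge, rose 1.41-fold, and both of its probe sets were called. With SERPINB8 it made 2 of 20 calls in the protease list.

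Within the PI3K and mTOR list 3 of 27 genes fell and 0 rose. Besides DEPTOR these were IRS2, an adaptor of the insulin receptor, which went from 10.23 and 10.20 to 9.46 and 9.13, and INPP4B, a lipid phosphatase that opposes PI3K, which went from 9.52 and 9.79 to 8.86 and 9.18. The kinases MTOR and AKT1, chosen after their values were seen, had uncalled differences of -0.06 and 0.09.

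Cell cycle genes gave few calls. Cyclins G1 and G2, unusual cyclins linked to growth arrest, both fell, CCNG2 from 8.34 and 8.80 to 7.54 and 7.81 on all of its 3 probe sets and CCNG1 by 1.41-fold. They were 2 of 21 in the G1 list. In limma's test 0 of 46 S phase genes and 0 of 58 G2 and M phase genes were called. The medians of these 2 lists had opposite signs on the 2 HGF arrays, at -0.08 and 0.14 for S phase and at -0.05 and 0.15 for G2 and M phase. The untreated arrays were split the same way about their own mean, at -0.20 and 0.20 for S phase and at -0.26 and 0.26 for G2 and M phase. PLK1, a mitotic kinase, had the largest difference of the second list at 0.79, but its untreated arrays were 8.98 and 9.64. BCL2A1, a survival protein of the BCL2 family, rose from 7.92 and 7.87 to 8.54 and 8.64 and was the only call among 18 apoptosis genes. AEN, a nuclease that p53 induces, rose 1.80-fold, while ZMAT3, another p53 target, fell 1.34-fold.

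RNA processing lists held more increases than decreases. Among 15 serine/arginine-rich splicing factors and TRA2 genes 3 rose and 0 fell, with a median of 0.29. Of these, SRSF6 went from 9.77 and 9.84 to 10.47 and 10.38. The other calls, SRSF7 and SRSF3, rose 1.62-fold and 1.52-fold. In hnRNP and paraspeckle proteins 2 of 28 rose, SFPQ and HNRNPAB, and 23 had a positive difference. In the list of mRNA decay and antiproliferative factors 3 of 22 genes rose and 1 fell. UPF1, the helicase of nonsense-mediated decay, rose from 7.82 and 8.21 to 8.63 and 8.80, and ZFP36L2, which binds AU-rich mRNA, rose from 9.49 and 9.47 to 9.97 and 10.19. BTG1, an antiproliferative partner of deadenylases, fell 1.58-fold in the same list, to 11.41 and 11.42. KPNA4, an importin for nuclear cargo, rose 1.65-fold as the only call among 44 transport genes by representative probe set.

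Smaller counts came from metabolic and mitochondrial lists. CTPS1, which makes cytidine triphosphate, went from 8.06 and 8.28 to 9.15 and 9.32, and UMPS, which completes uridine monophosphate, rose 1.66-fold. They were 2 of 25 in nucleotide synthesis. With MAT2A, 3 of 20 polyamine and methionine genes rose, the others being AMD1, which makes the aminopropyl donor for polyamines, and DOHH, which completes hypusine on initiation factor 5A. AMD1 had 9.46 and 9.31 before and 10.14 and 10.10 after. GRPEL1, TOMM40 and TIMM17A of the mitochondrial import path rose between 1.53-fold and 1.69-fold, as 3 of 30. NSDHL of cholesterol synthesis rose 1.56-fold as 1 of 28. KDM3A, a histone demethylase, and BNIP3L, a mitophagy receptor, fell 1.55-fold and 1.35-fold in the list of glycolysis and hypoxia genes. GCLM, a subunit of the enzyme that starts glutathione synthesis, rose from 7.44 and 7.62 to 8.31 and 8.39 as 1 of 19 oxidative stress genes.

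Protein quality lists held few calls. PSMD12, a lid subunit of the proteasome, rose from 9.04 and 9.03 to 9.78 and 9.82 as the only call of 36, but the list's median was 0.25 and 32 members had a positive difference. Cytosolic heat shock proteins had a median of 0.23, with 21 of 22 differences positive and 0 called by limma. Autophagy genes had a median of -0.16 and 1 of 23 called each way. The receptor SQSTM1 rose 1.49-fold and the related receptor NBR1 fell from 9.03 and 9.07 to 8.14 and 8.12, with both of its probe sets called. Lysosomal enzymes had 0 of 41 called and respiratory chain subunits 0 of 49, with medians of -0.04 and -0.02. ISG20, an exonuclease that interferon induces, rose 1.78-fold as 1 of 24.

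Melanocyte lineage genes had 3 of 23 members lower and 0 higher, with a median of -0.11. MITF, the master regulator of the lineage, stood at 11.16 and 11.19 in untreated cells and at 10.47 and 10.26 after HGF. TYR, the first enzyme of melanin synthesis and a MITF target, was at 12.17 and 12.10 and then at 11.74 and 11.57. ERBB3, a receptor of the EGF receptor family, went from 9.31 and 9.25 to 8.70 and 8.47. PMEL and MLANA, pigment cell proteins named after their values were seen, had uncalled differences of -0.14 and -0.04. SNAI2, a zinc finger repressor shared by neural crest cells and the mesenchymal programme, fell from 10.85 and 10.99 to 10.00 and 10.28 as the only call among 14 cadherin and epithelial-mesenchymal genes.

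Actin and focal adhesion genes held 3 calls, all higher. ZYX rose from 9.48 and 9.47 to 10.32 and 10.17, PXN from 8.62 and 8.73 to 9.29 and 9.27, and PDLIM7 by 1.45-fold. Zyxin and paxillin couple actin to integrin contacts, and PDLIM7 binds actin stress fibres. They were 3 of 49 actin and focal adhesion genes (6.12%, against 3.74% of all genes), with a list median of 0.06. In limma's test 0 of 11 integrin subunits and 0 of 11 semaphorin, plexin and neuropilin genes were called, and ITGB3, tested through its 6 h arrays, had an uncalled difference of 0.50. HMGA2, a chromatin protein of embryonic and tumour cells, rose from 6.53 and 6.72 to 7.71 and 7.76, having been tested through its 6 h arrays.

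**Figure D4:**
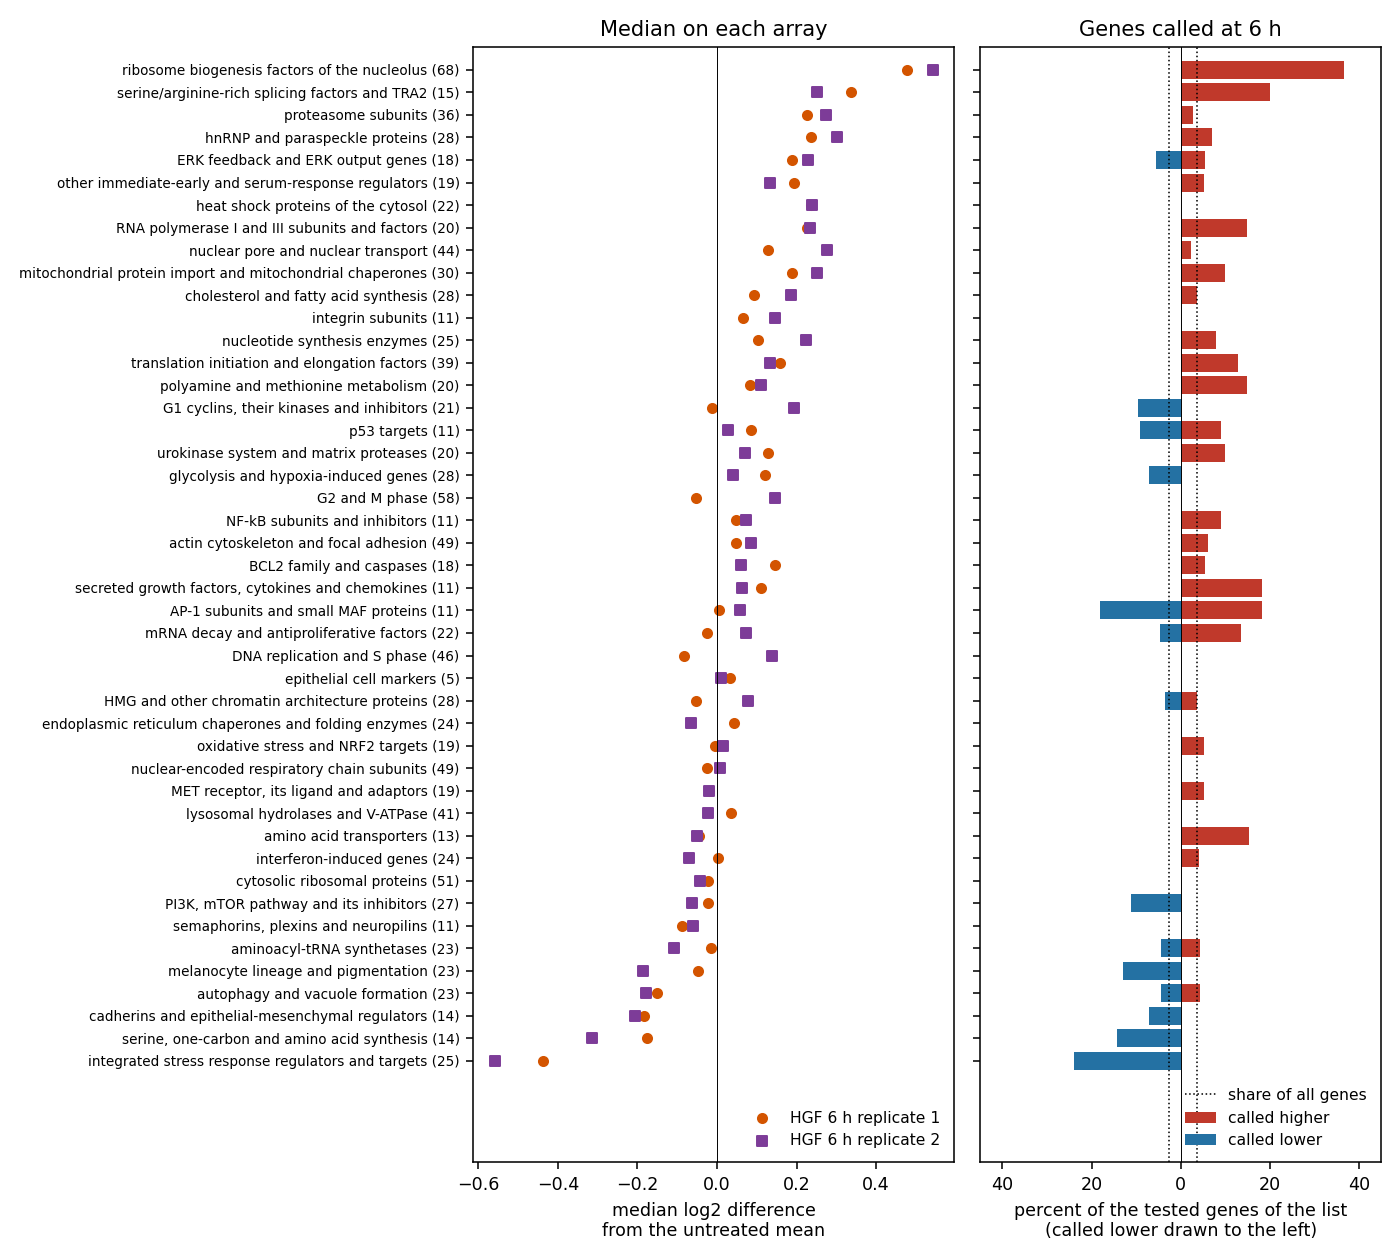
Gene lists with 5 or more tested genes (number in brackets), in order of the median difference. The left panel shows the median log2 difference from the untreated mean on HGF 6 h replicate 1 (circles) and replicate 2 (squares), and the right panel the percent of tested genes called higher (red, to the right) or lower (blue, to the left). Dotted lines mark 3.74% and 2.72%, the shares of all genes. Ribosome biogenesis factors stand at the top and integrated stress response genes at the bottom.

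The 6 h arrays were also set against the other HGF times, with which they share the 6 h samples. In the contrast with 1 h, the 6 h arrays had 1208 higher and 651 lower probe sets (11.9% and 6.4%), which is 747 and 473 genes (11.7% and 7.4%). Against 24 h, 1276 probe sets were higher and 707 lower (12.5% and 6.95%), or 787 and 474 genes (12.3% and 7.42%). Genes called in the same direction against untreated, 1 h and 24 h were ranked by the smallest of their 3 differences. Of the first 5 upward, RBM12 was 1.71 above 1 h and 2.37 above 24 h, and MAT2A was 1.52 and 2.46 above them. RBM12 read 8.02 and 7.44 at 1 h and 6.97 and 7.17 at 24 h, so its 24 h arrays were below the untreated ones. LYPD1, CXCL8 and FRMD4A completed this set. LYPD1 had 7.19 and 7.60 at 1 h and 7.17 and 7.45 at 24 h, values within the range of its untreated arrays or just under it.

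Downward, the first 5 genes of that ranking were KLHL24, YPEL5, DBP, HERPUD1 and ATF4. ATF4 was at 12.19 and 12.16 at 1 h and at 12.07 and 12.19 at 24 h, and the 6 h mean differed from these times by -1.28 and -1.23. KLHL24 differed by -1.42 and -1.59 from the 2 other times. DBP, with the uneven HGF pair, differed from them by -1.51 and -1.70. SPHK1 gave the same form upward, with 8.54 and 8.35 at 1 h and 8.46 and 8.34 at 24 h.

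Many genes called against untreated cells did not pass the test between 1 h and 6 h. Of the 239 called higher, 140 were also called higher than at 1 h. Of the 174 called lower, 98 were also called lower than at 1 h, and 2 were called higher. Over all genes these shares were 11.7% higher and 7.4% lower, and both contrasts share the 6 h arrays. EPHA3 had 7.88 and 7.96 at 1 h and differed from 6 h by -0.13 (limma adjusted p = 0.534). NFKBIA had 9.82 and 9.90 at 1 h, a difference of 0.04 from 6 h (limma adjusted p = 0.874). JUNB and IER2 differed from 1 h by 0.11 and 0.08, neither called. A p above the threshold does not show that such levels were equal. BCL2A1 took another course, with 7.00 and 7.05 at 1 h, below its untreated arrays, before 8.54 and 8.64 at 6 h. TYR had 11.65 and 11.64 at 24 h, and 6 h differed from that by 0.01.

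**Figure D5:**
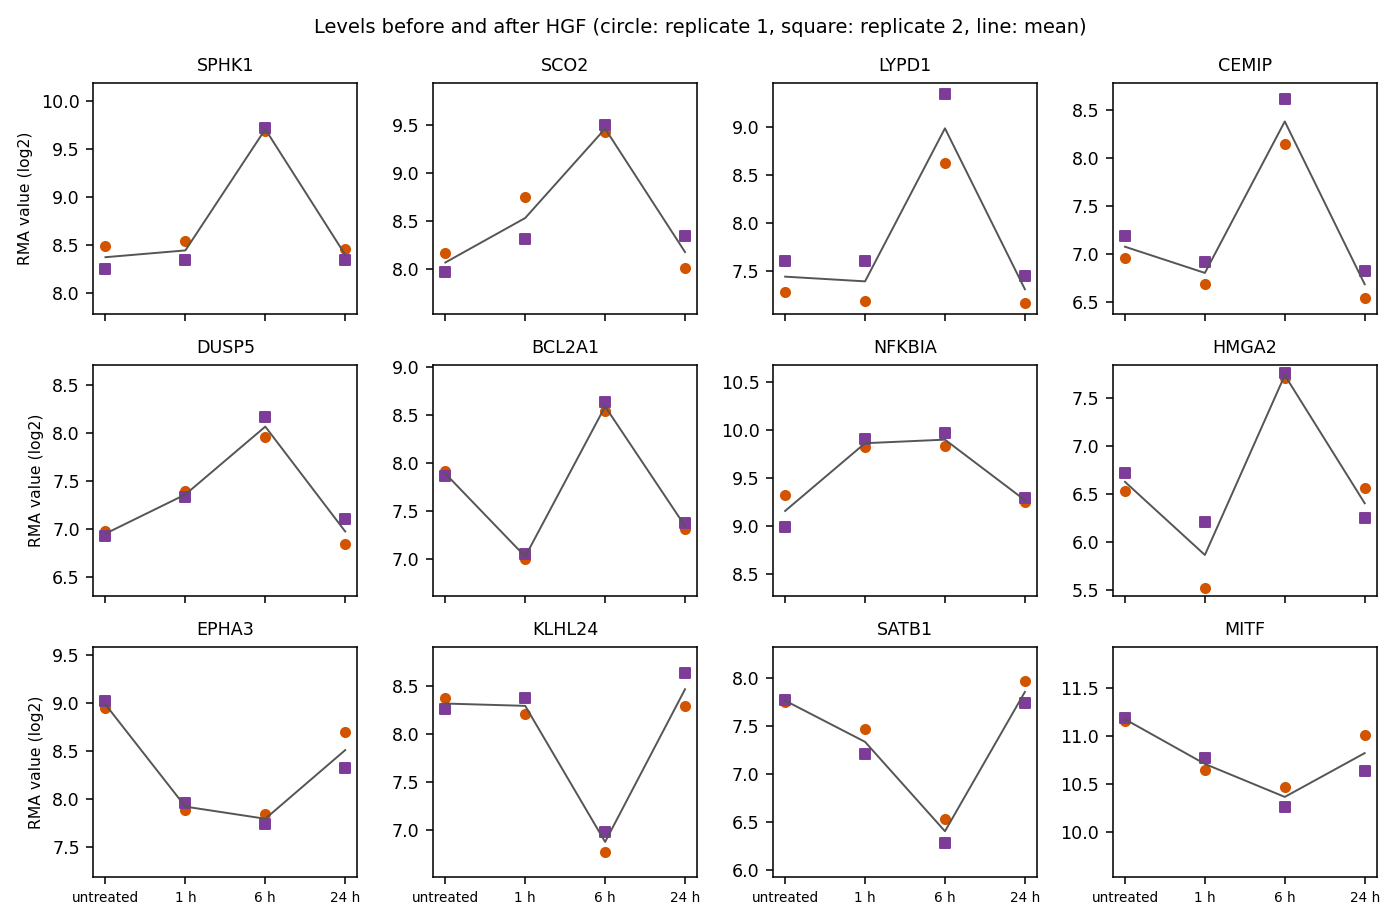
RMA values (log2, y axis) of 12 genes in untreated cells and after 1 h, 6 h and 24 h of HGF (x axis, times not to scale). Circles are replicate 1, squares replicate 2 and lines join the means. All panels span the same log2 range. SPHK1, LYPD1 and CEMIP are high at 6 h alone, while EPHA3 is already low at 1 h.

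Probe sets of a gene did not always give the same answer. Of the 239 genes called higher by their representative probe set, 74 had more than 1 tested, and in 37 of them all were called. Among the 174 called lower these numbers were 59 and 15. By any probe set, 302 genes were called higher and 190 lower, so further genes were called only on another probe set. The cases below were chosen after their values were seen. NUP98, a nuclear pore protein, was higher by 1.78 on 1 of 3 probe sets, while its representative differed by 0.02. ATF5, a factor close to ATF4 and a member of the stress response list, was higher by 1.17 on 1 of 2, against 0.18 on the other. RAB27A, which moves melanosomes, was lower on 2 of 4 probe sets, at -0.72 and -0.86, against -0.06 on its brightest. CCND1, cyclin D1, was higher by 0.90 on 1 probe set, while its representative, tested through its 6 h arrays, differed by 1.36 and was not called. HMGCS1 and SQLE of cholesterol synthesis were also called higher on probe sets other than the brightest, by 0.75 and 0.69. No gene was called in both directions.

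The number of calls rested on having all 4 arrays. Without untreated replicate 1, 36 probe sets were higher and 32 lower. Without untreated replicate 2 these were 11 and 8. Without HGF 6 h replicate 1 they were 32 and 30, and without HGF 6 h replicate 2 they were 11 and 14. Of the 239 and 174 genes called, between 3 and 23 and between 7 and 24 remained in these fits. In each of them a group is left with 1 array, which limma assumes to vary like the others.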

How the data were processed

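The authors normalized the hgu133a arrays with RMA in the affy package, as named in the submitters' processing notes, without versions. They deposited log2 RMA values of 22283 probe sets for 10 arrays. Such values give no depth, so precision depends on how many arrays there are. After 68 control probe sets were set aside, 10176 of the rest were kept, and GEO's platform table gave 9098 of them 1 symbol, 535 more than 1 and 543 no symbol. Detection calls were not used here, so a second-highest value of at least 7.3 served as the filter. limma 3.58.1 (R 4.3.3) fitted a mean per group over all 10 arrays with eBayes (5 residual and 5.94 prior degrees of freedom), with Benjamini-Hochberg adjustment over the 10176 probe sets. The script was tested on simulated data.

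The genes named were the 12 largest increases and decreases with groups apart, at most 5 called genes each way per list or the 2 largest differences, HGF and MET, and 5 genes each way that differed from both other times. The comparison, lists and rules were chosen with earlier results of these data known. Motif windows were the first RefSeq window of each gene. Alternatives were other filters, scalings, spread estimates, probe set rules, thresholds, a replicate block and leaving out each array.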

Additional observations from a re-analysis of the deposited data

Results flagged for a closer look

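The 24 genes with the largest differences at 6 h were looked at again because their effect at 6 h differed from that at another HGF time, by limma's direct contrast of the times on all arrays. The untreated arrays cancel in these contrasts, which share the 6 h arrays. The genes were picked for large differences on those same 6 h arrays, which favours differences from the other times. SERPINB8, CXCL8 and CEMIP also reached the level for testing through their 6 h arrays, so their calls were favoured by the rule. Values are log2 differences, all with limma adjusted p under 0.05.

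Higher at 6 h than at 1 h were RBM12 by 1.71, SERPINB8 by 1.19, MAT2A by 1.52, FOSL1 by 1.00, LYPD1 by 1.59, CXCL8 by 1.69, SCO2 by 0.93, SPHK1 by 1.26, FRMD4A by 1.43, CEMIP by 1.58, RBM14 by 0.79 and SFPQ by 1.56. Higher at 6 h than at 24 h were RBM12 by 2.37, SERPINB8 by 1.91, MAT2A by 2.46, FOSL1 by 2.07, LYPD1 by 1.67, CXCL8 by 1.90, SCO2 by 1.28, SPHK1 by 1.31, FRMD4A by 1.70, CEMIP by 1.69, RBM14 by 1.58 and SFPQ by 2.43. MAT2A, SFPQ and RBM12 stood farthest from 24 h.

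Differences of 6 h from 1 h among the decreases were for ZNF277 -0.85, KLHL24 -1.42, DEPTOR -1.07, SATB1 -0.93, FOXN3 -0.85, XYLT1 -0.89, YPEL5 -1.14, DBP -1.51, HERPUD1 -1.36, ATF4 -1.28 and CCDC28A -1.03. Those of 6 h from 24 h were for ZNF277 -1.41, KLHL24 -1.59, DEPTOR -1.31, SATB1 -1.45, FOXN3 -1.02, XYLT1 -0.92, YPEL5 -1.48, DBP -1.70, EPHA3 -0.71, HERPUD1 -1.22, ATF4 -1.23 and CCDC28A -1.41. EPHA3 did not pass the threshold against 1 h. What lies behind the differences between times was not tested.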

How the results depend on the processing

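None of the 95 called genes chosen by the naming rule changed direction under an alternative. Of the uncalled genes chosen by that rule, 1 changed sign, the leukocyte marker LCP1 (-0.01), at 0.00319 with each array centred on its median, 0.000235 without HGF 6 h replicate 1 and between -0.0602 and 0.05004 over all single arrays left out, the latter without untreated replicate 2. Of 44 gene lists without cell type markers, 15 had a median whose sign changed under some alternative, all with a median of at most 0.13 in size, such as G2 and M phase (0.07, range -0.22 to 0.32), S phase (0.03, range -0.16 to 0.25) and endoplasmic reticulum chaperones (0.02, range -0.06 to 0.04). Filters, scaling and the trended prior kept the counts of probe sets within 1.5 times. The mean over a gene's probe sets counted genes, with 317 higher and 203 lower, beside 239 and 174 by representative probe set. The share of calls that were higher was 62.5%, 65.3% with median centring and 58.6% with cyclic loess. With the spread taken from the 2 compared groups alone, 1126 probe sets were higher and 735 lower, and with the unmoderated pooled spread 28 and 26. At unadjusted p under 0.05 these were 1375 and 985. Against 1 h the unmoderated spread gave 77 higher and 108 lower and the unadjusted p 2054 and 1524. Against 24 h they gave 250 and 188, and 2048 and 1413. A fold change over 1.5 left 262 lower calls against 1 h and 326 against 24 h. Leaving out 1 array gave 11 to 553 higher and 8 to 314 lower probe sets against untreated, 159 to 1444 and 42 to 738 against 1 h, and 353 to 1479 and 123 to 814 against 24 h. Replicate numbers were not shown to pair the arrays, since the correlation of same-numbered deviations was 0.317 between untreated and 6 h and from -0.14 to 0.461 between other groups. Across probe sets the differences of the 2 pairs correlated at 0.78 with the same numbers and at 0.61 crossed. With the replicate block 532 probe sets were higher and 370 lower. Chosen after seeing the data, list counts with the block and with cyclic loess were 29 and 26 of the biogenesis factors higher and 9 and 8 of the stress genes lower. The low end of the scale limits sizes: 50 of the probe sets called higher had an untreated mean under 7.3, and 64 of those called lower a 6 h mean under it.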
